A study of Mus musculus with 16 samples.

Results

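A set of 10 genes of the trypsin-fold serine protease system was described here in sorted cells of the mouse distal colon: 9 proteases (Tpsg1, Klk1, Prss30, Prss8, Prss23, Prss32, St14, Tmprss2 and Tmprss4) and the inhibitor Spint1. They were taken by symbol from a count table of 21442 genes, and all 10 passed the filter on low counts that left 12915 genes to test. All mice carried the RedMUC298trTg reporter, were 6 to 8 weeks old, and were either otherwise wild type (WT) or labelled Spdef-/- (SpdefKO), Spdef being a transcription factor of the ETS family known for its role in goblet cell maturation. Live epithelial cells were sorted by mCherry, against a C57Bl6 mouse without the reporter, into mCherry-positive goblet cells (GC) and the remaining, mCherry-negative epithelial cells (EC). RNA sequencing gave 4 libraries in each of the groups WT_EC, WT_GC, SpdefKO_EC and SpdefKO_GC, which are named here by the library numbers of the labels. Whether each library is its own mouse is not stated in the labels, so a p-value speaks only of the spread among libraries, and that spread may be technical.

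Trypsin-fold proteases are made as inactive precursors, and the trypsin-like ones among them cut after basic residues once activated. At epithelial surfaces the transmembrane protease matriptase (St14) and the lipid-anchored protease prostasin (Prss8) activate each other and are held in check by the Kunitz inhibitors Spint1 and Spint2. Their known targets include the protease-activated receptor F2rl1, the epithelial sodium channel and the adhesion protein Epcam. Goblet cells secrete the colonic mucus, whose mucin Muc2 is itself open to proteolysis.

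Libraries held 10085637 to 17111987 counts in gene rows, and levels are given as CPM, the count of a gene scaled to a common library total (the gene-row total adjusted by edgeR's TMM factors). The markers separated the sorted fractions in both genotypes: all 10 goblet markers were higher and all 10 absorptive colonocyte markers lower in GC than in EC. The summed goblet markers ran from 46726 to 53261 CPM in WT_GC and from 52668 to 64977 CPM in SpdefKO_GC. The targeted gene did not separate the genotypes. Spdef was at 280, 306, 281 and 315 CPM in WT_GC libraries 9, 11, 13 and 18 and at 368, 373, 446 and 294 CPM in SpdefKO_GC libraries 3, 5, 7 and 19 (log2 0.33 ± 0.14 SE, adjusted p = 0.116, edgeR quasi-likelihood test). The exons lost in the allele are not given in the labels, so the gene count cannot check the genotype, and every genotype difference given here is between libraries labelled SpdefKO and libraries labelled WT. GC and EC lysates went through different RNA columns, so cell type and RNA column cannot be told apart. In such bulk libraries fewer cells of a type and less RNA per cell cannot be told apart either.

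The upstream sequence of 3 members is shown because their level differed more than 1.5-fold between the genotypes, Tpsg1 and Klk1 in GC and Prss23 in EC. Each is the 250 bases before the annotated gene start in RefSeq, build GRCm38.p6, on the strand of the gene. GGAT, the core that Spdef is known to prefer, and its complement ATCC are in capitals.
Tpsg1, chr17:25369023-25369272, plus strand: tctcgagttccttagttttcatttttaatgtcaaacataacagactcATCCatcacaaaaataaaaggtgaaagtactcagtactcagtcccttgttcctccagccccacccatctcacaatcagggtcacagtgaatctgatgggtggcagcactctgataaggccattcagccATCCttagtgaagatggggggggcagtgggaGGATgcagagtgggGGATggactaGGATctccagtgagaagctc
Klk1, chr7:44225110-44225359, plus strand: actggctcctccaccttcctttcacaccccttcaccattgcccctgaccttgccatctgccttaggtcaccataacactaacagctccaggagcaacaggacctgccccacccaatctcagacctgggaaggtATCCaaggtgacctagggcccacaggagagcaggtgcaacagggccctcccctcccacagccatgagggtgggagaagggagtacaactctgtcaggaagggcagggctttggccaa
Prss23, chr7:89527188-89527437, minus strand: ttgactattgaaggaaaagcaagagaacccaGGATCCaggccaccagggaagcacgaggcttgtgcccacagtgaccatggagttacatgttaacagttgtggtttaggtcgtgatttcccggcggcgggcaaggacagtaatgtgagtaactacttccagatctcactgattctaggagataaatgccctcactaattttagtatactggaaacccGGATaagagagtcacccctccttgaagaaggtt
The Tpsg1 window held 5 matches to GGAT over both strands, the Prss23 window 3 and the Klk1 window 1. RefSeq lists further windows at other starts: 1 other for Tpsg1, with 2 matches, and 6 others for Prss23, with 1 to 3 matches each. Matches on opposite strands may overlap, as in the GGATCC of the Prss23 window. Over 32851 such windows of the mouse genome the median was 1 match, 19.3% of windows held 3 or more and 2.53% held 5 or more. The longer motif CCGGAT was in 1 of the 7 Prss23 windows, the one shown, overlapping a GGAT match, and in 4.94% of all windows. A match describes letters in the window and says nothing of binding. RefSeq windows were matched for 7 of the 10 members, and the windows of Prss8, St14 and Tmprss4 are not shown.

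Tpsg1, the transmembrane tryptase known from mast cell granules, was found almost wholly in the GC libraries and was lower in SpdefKO_GC than in WT_GC. It was at 111, 109, 130 and 109 CPM in WT_GC libraries 9, 11, 13 and 18, and at 21.3, 22.4, 18.7 and 18.3 CPM in SpdefKO_GC libraries 3, 5, 7 and 19. The ranges were far apart, and Tpsg1 fell 5.69-fold (log2 -2.51 ± 0.10 SE, adjusted p = 7.01e-12, edgeR quasi-likelihood test with Benjamini-Hochberg adjustment over 12915 genes). In EC it was near the floor, with 17 counts over the 4 WT_EC libraries and 5 over the 4 SpdefKO_EC libraries, 1 of which had none. Tpsg1 passed the filter on low counts through GC, and these EC counts were too few to say whether the genotypes differed in EC (fitted log2 -1.68 ± 0.51 SE) or whether the genotype effect differed between GC and EC (-0.83 ± 0.70 SE). GC stood above EC in SpdefKO by a log2 difference of 7.69 ± 0.23 SE (adjusted p = 2.72e-15), a value that rests on those 5 counts. The EC level was 0.271% of the GC level in WT, beside 0.400% for Muc2, the secreted mucin that marks goblet cells. In the SpdefKO libraries the shares were 0.400% for Tpsg1 and 0.224% for Muc2. Muc2 itself stood at 12079 ± 681 CPM (SD, n = 4) in WT_GC against 12542 ± 1689 CPM in SpdefKO_GC, and its log2 difference of 0.05 did not pass (adjusted p = 0.840).

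Mast cell transcripts were looked for because Tpsg1 is known from that lineage. In WT_GC, against 6912 counts of Tpsg1, the mast cell tryptases Tpsab1 and Tpsb2 had 0 and 11 counts, the carboxypeptidase Cpa3 had 2, and the IgE receptor chains Fcer1a and Ms4a2 had 0 and 5. The summed level of the 12 mast cell genes was 278 to 301 CPM in WT_GC and 236 to 364 CPM in SpdefKO_GC, and nearly all of it came from Kit, which is also in the list of stem and crypt base cell genes. Kit had 16673 counts in WT_GC and 15631 in SpdefKO_GC. The chymase Cma1 had 516 counts in WT_GC and 399 in SpdefKO_GC, against 8 and 9 in WT_EC and SpdefKO_EC. Of the 5 mast cell genes tested in GC, 1 rose in SpdefKO and none fell: the transcription factor Gata2 went from 8 to 185 counts (log2 4.44 ± 0.40 SE, adjusted p = 2.71e-07). The median log2 difference of the 5 was 1.58, beside 0.00 over all genes tested, of which 10.4% rose and 11% fell. Gata2 passed the filter on low counts through SpdefKO_GC, the group where it is high. The filter thus shaped its rise, the tally and the median, and none of them is independent evidence. That median also rests on few counts: the proteases Mcpt1 and Mcpt2 had 5 and 1 in WT_GC and 16 and 7 in SpdefKO_GC. The part of mast cell RNA in the Tpsg1 difference was not tested beyond these counts. In EC the mucosal mast cell proteases Mcpt1 and Mcpt2 had 43 and 21 counts in WT and 259 and 130 in SpdefKO, where Tpsg1 had 17 and 5.

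Tpsg1 lies at chr17:25369273-25374442 (GRCm38, plus strand, 5 exons), and its last 158 bases are exonic in both Tpsg1 and Cacna1h, a calcium channel gene on the opposite strand. The library kit keeps strand, but no label gives the strand setting of the counting, so counts of the pair cannot be fully told apart. Cacna1h was at 16.9, 18.02, 18.6 and 21.3 CPM in WT_GC and at 3.67, 6.46, 4.31 and 5.12 CPM in SpdefKO_GC, with no overlap between the groups (log2 -1.94 ± 0.17 SE, adjusted p = 1.41e-07). It also fell in EC, where Tpsg1 was near its floor, from 9.96 ± 2.03 CPM (SD, n = 4) in WT_EC to 4.17 ± 0.557 CPM in SpdefKO_EC (log2 -1.25 ± 0.18 SE, adjusted p = 0.000169). The genes with profiles most like that of Tpsg1 over the 16 libraries were the chemokine Ccl6 and Gm6086, with root-mean-square differences of 0.50 and 0.55 in centred log2(CPM + 0.5) among 10806 genes searched. Ccl6 was at 1402 ± 193 CPM (SD, n = 4) in WT_GC, 412 ± 38.7 in SpdefKO_GC, and 7.50 ± 1.81 and 5.04 ± 1.57 in WT_EC and SpdefKO_EC.

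Klk1, the tissue kallikrein that releases kinin peptides from kininogen, had the highest level per length of exon of the 10 genes in each of the 4 groups. In WT_GC libraries 9, 11, 13 and 18 it stood at 2437, 2301, 2698 and 2406 CPM, and in SpdefKO_GC libraries 3, 5, 7 and 19 at 1437, 1600, 1477 and 1706 CPM. The groups did not overlap, and Klk1 fell 1.58-fold (log2 -0.66 ± 0.09 SE, adjusted p = 6.50e-05). Unlike Tpsg1 it was plainly present in EC, at 492, 509, 581 and 474 CPM in WT_EC libraries 10, 12, 14 and 17 and at 393, 471, 383 and 504 CPM in SpdefKO_EC libraries 4, 6, 8 and 20. These ranges overlapped and the difference did not pass (log2 -0.23 ± 0.09 SE, adjusted p = 0.113). The EC level of Klk1 was 20.9% of its GC level in WT and 28.1% in SpdefKO, where the shares of Muc2 were 0.400% and 0.224%. GC exceeded EC 4.79-fold in WT (log2 2.26 ± 0.10 SE, adjusted p = 3.51e-13) and 3.55-fold in SpdefKO (1.83 ± 0.10 SE, adjusted p = 7.60e-12). The genotype effect was more negative in GC than in EC by 0.43 ± 0.13 SE on the log2 scale (adjusted p = 0.0490), a call lost in 12 of the 16 fits that left out 1 library, none of which pairs GC with EC libraries (adjusted p up to 0.11).

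The count ratio of Tpsg1 to Klk1, taken within each library, was 0.0467 ± 0.0013 (SD, n = 4) in WT_GC and 0.0131 ± 0.0018 in SpdefKO_GC, so these 2 genes fell unequally. The 12 kallikrein genes of the Klk1b family, close paralogs of Klk1, had 392 counts in all 16 libraries together, 0.134% of the 293198 counts of Klk1. The profiles most like that of Klk1 were those of Smim14 and Fam174b (root-mean-square difference 0.18 and 0.19 over 16 libraries). Klk1 lies at chr7:44225360-44229618 on the plus strand.

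**Figure D1:**
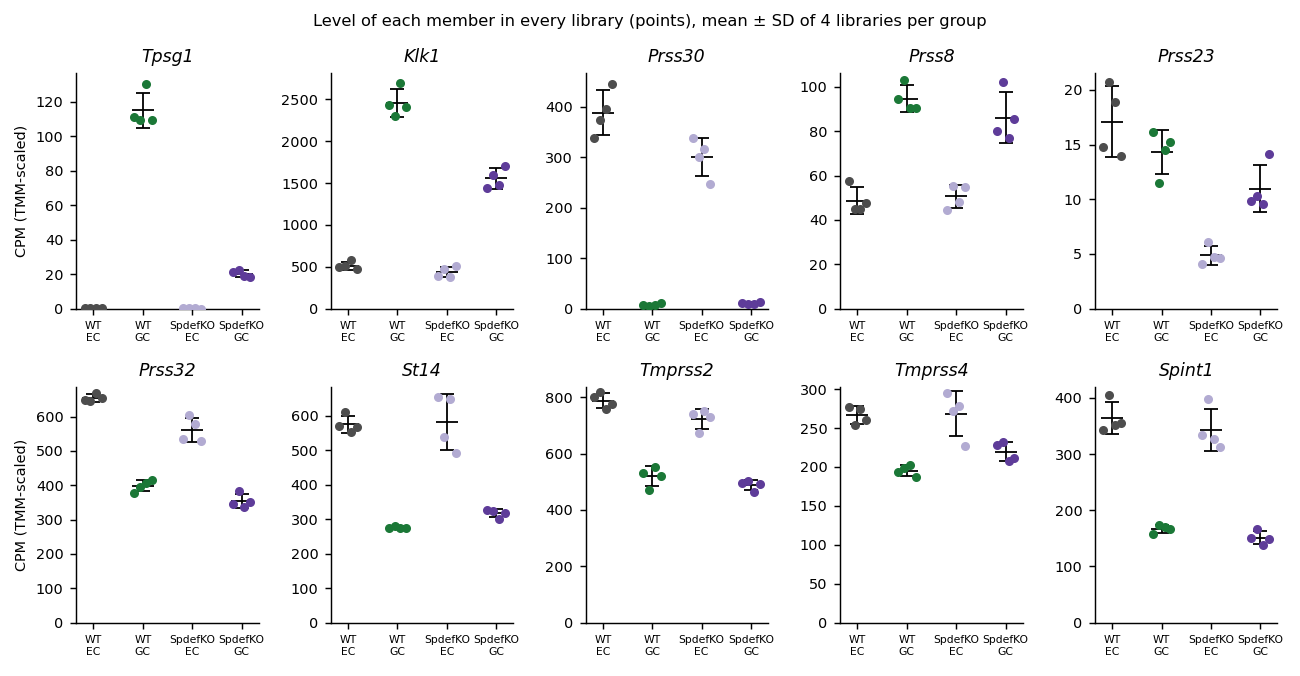
Level of each of the 10 genes in CPM (vertical axis, from 0, one scale per panel) in every library (points) of the 4 groups, with the mean ± SD of 4 libraries. Tpsg1 sits between 109 and 130 CPM in WT_GC and between 18.3 and 22.4 CPM in SpdefKO_GC, and Prss23 in SpdefKO_EC lies below every other group.

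Prss30, also known as distal intestinal serine protease, was the member with the steepest preference for EC. It was at 338, 374, 395 and 445 CPM in WT_EC and at 338, 301, 316 and 248 CPM in SpdefKO_EC, just below it in range, with WT_GC at 6.59, 5.86, 6.99 and 10.6 CPM and SpdefKO_GC at 11.4, 9.73, 8.55 and 13.7 CPM. GC libraries were 52.7-fold lower than EC in WT (log2 -5.72 ± 0.18 SE, adjusted p = 2.17e-14) and 27.7-fold lower in SpdefKO (-4.79 ± 0.17 SE, adjusted p = 1.21e-13). Within GC, Prss30 was higher in SpdefKO by 0.56 ± 0.18 SE (adjusted p = 0.0362), although the highest WT_GC library, 18, lay above 2 of the 4 SpdefKO_GC libraries. That call was lost in 5 of the 8 fits without 1 library, with adjusted p up to 0.111. Within EC the log2 difference was -0.37 ± 0.14 SE (adjusted p = 0.0878), and the 2 genotype effects differed by 0.93 ± 0.23 SE (adjusted p = 0.0158).

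Absorptive colonocyte genes moved with Prss30 in GC. Of the 10 markers 6 were higher in SpdefKO_GC than in WT_GC and none lower, where 10.4% of all genes were higher and 11% lower. The summed level of the 10 ran from 828 to 1000 CPM in WT_GC and from 1243 to 1502 CPM in SpdefKO_GC. In EC that sum ran from 10976 to 12402 CPM in WT and from 10278 to 12102 CPM in SpdefKO. The GC level of Prss30 as a share of its EC level was 1.93% in WT and 3.61% in SpdefKO. The same shares were 1.59% and 3.66% for the sodium-proton exchanger Slc9a3, 1.92% and 3.78% for the carbonic anhydrase Car4, and 1.92% and 3.06% for the water channel Aqp8. Shares were taken for these markers only and do not stand for the list. By the sums above, the GC level of all 10 together was a larger share of their EC level than for Prss30, in both genotypes. The genes with profiles most like that of Prss30 were Ceacam20, which is itself on the absorptive list, and the phosphate transporter Slc34a2 (root-mean-square difference 0.17 and 0.19). The part of absorptive RNA in the Prss30 difference was not tested.

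Prss8, prostasin, was the third gene with more counts in GC. It was at 94.6, 103, 90.6 and 90.5 CPM in WT_GC against 57.4, 44.9, 45.0 and 47.7 CPM in WT_EC, with no overlap (1.94-fold, log2 0.96 ± 0.10 SE, adjusted p = 1.24e-07). SpdefKO_GC was at 80.003, 102, 76.8 and 85.5 CPM and SpdefKO_EC at 44.6, 55.1, 48.0 and 54.9 CPM, again without overlap (1.70-fold, adjusted p = 2.60e-06). The genotype differences did not pass in GC (log2 -0.14, 95% interval -0.35 to 0.07, adjusted p = 0.353) or in EC (0.05, -0.16 to 0.27, adjusted p = 0.782). Prss8 shares 122 exonic bases with Kat8 on the opposite strand.

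Prss32, a protease of the tryptase cluster on chromosome 17, was higher in EC. It was at 648, 645, 669 and 654 CPM in WT_EC and at 378, 396, 406 and 416 CPM in WT_GC (log2 -0.71 ± 0.06 SE, adjusted p = 8.55e-09). In SpdefKO_EC it was at 534, 603, 577 and 528 CPM, below every WT_EC library, and it fell by 0.22 ± 0.06 SE on the log2 scale (adjusted p = 0.0246). Without WT_EC library 17, SpdefKO_EC library 4 or SpdefKO_EC library 20 that call was lost, with adjusted p of 0.0551, 0.0713 and 0.0541. In GC the log2 difference was -0.17 ± 0.06 SE (adjusted p = 0.0526), and the genotype effects in GC and EC did not differ beyond their error (0.05 ± 0.09 SE, adjusted p = 0.799). Prss32 shares 59 exonic bases with Prss41 on the opposite strand. It shares 547 more with Gm15947, an antisense gene without counts of its own.

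The transmembrane proteases St14, Tmprss2 and Tmprss4 were each lower in GC than in EC in both genotypes. St14, matriptase, was at 572, 611, 553 and 567 CPM in WT_EC and at 275, 281, 275 and 274 CPM in WT_GC (2.08-fold lower, log2 -1.06 ± 0.08 SE, adjusted p = 9.87e-10). Tmprss2, known for priming viral envelope proteins, was at 788 ± 27.3 CPM (SD, n = 4) in WT_EC and 520 ± 35.6 CPM in WT_GC (log2 -0.60 ± 0.06 SE, adjusted p = 1.24e-07). Tmprss4 was at 267 ± 11 CPM in WT_EC and 195 ± 7.09 CPM in WT_GC (log2 -0.45 ± 0.07 SE, adjusted p = 2.84e-05). In the SpdefKO libraries the same log2 differences were -0.88, -0.57 and -0.29, each past the threshold, and for Tmprss4 the ranges of SpdefKO_GC (208 to 232 CPM) and SpdefKO_EC (227 to 295 CPM) overlapped.

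None of these 3 genes passed between the genotypes. In GC, St14 was at 327, 324, 300 and 319 CPM in SpdefKO, above all WT_GC libraries, but its log2 difference of 0.20 (95% interval 0.03 to 0.36) did not pass (adjusted p = 0.0808). The fit on the 2 GC groups alone gave an adjusted p of 0.0184. Tmprss4 was also higher in every SpdefKO_GC library than in any WT_GC library (log2 0.17, 95% interval 0.02 to 0.32, adjusted p = 0.107). Tmprss2 in GC gave -0.09 (95% interval -0.22 to 0.04, adjusted p = 0.345). In EC the log2 differences were 0.02 for St14, -0.12 for Tmprss2 and 0.01 for Tmprss4, with adjusted p of 0.905, 0.207 and 0.960. Tmprss4 shares 412 exonic bases on the opposite strand with Gm17099, an antisense gene without counts of its own.

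Spint1, the Kunitz inhibitor of matriptase and prostasin, was at 343, 406, 352 and 356 CPM in WT_EC and at 157, 173, 171 and 166 CPM in WT_GC. It was 2.18-fold lower in GC in WT (log2 -1.13 ± 0.08 SE, adjusted p = 5.80e-10) and 2.27-fold lower in SpdefKO (-1.18 ± 0.08 SE, adjusted p = 3.57e-10). Between the genotypes it gave -0.14 in GC (95% interval -0.31 to 0.03, adjusted p = 0.224) and -0.09 in EC (-0.26 to 0.08, adjusted p = 0.517). The ratio of Prss8 to Spint1, each per length of exon and within a library, was 0.202 ± 0.035 (SD, n = 4) in WT_EC and 0.849 ± 0.053 in WT_GC. In SpdefKO it was 0.222 ± 0.028 in EC and 0.850 ± 0.050 in GC, so the ratio separated GC from EC in every library. The ratio of St14 to Spint1 was 0.574 ± 0.024 in WT_EC and 0.601 ± 0.023 in WT_GC, and 0.622 ± 0.112 and 0.763 ± 0.041 in SpdefKO_EC and SpdefKO_GC.

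The second inhibitor, Spint2, fell in both SpdefKO fractions: from 668 to 537 CPM in GC (log2 -0.31 ± 0.06 SE, adjusted p = 0.000891) and from 948 to 801 CPM in EC (-0.24 ± 0.06 SE, adjusted p = 0.0112), as means of 4 libraries. Its ranges did not overlap in either comparison. F2rl1, the receptor cut by several of these proteases, was at 132 CPM in both GC groups and at 177 and 187 CPM in WT_EC and SpdefKO_EC, and did not pass between the genotypes (adjusted p = 0.992 in GC and 0.60 in EC).

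Prss23, a secreted serine protease, had the largest genotype difference of the 10 genes in EC among those that passed. It was at 14.8, 20.7, 18.9 and 13.9 CPM in WT_EC libraries 10, 12, 14 and 17 and at 4.08, 6.07, 4.74 and 4.59 CPM in SpdefKO_EC libraries 4, 6, 8 and 20. The groups were far apart, and Prss23 fell 3.49-fold (log2 -1.80 ± 0.17 SE, adjusted p = 3.31e-06). In GC it was at 16.2, 11.5, 14.5 and 15.2 CPM in WT and at 9.86, 10.3, 9.54 and 14.1 CPM in SpdefKO, which overlapped (log2 -0.39 ± 0.16 SE, adjusted p = 0.0928). Without SpdefKO_GC library 19, the high one, the GC difference was -0.52 with an adjusted p of 0.0324. The 2 genotype effects differed by 1.42 ± 0.24 SE (adjusted p = 0.000812). Prss23 was the only member whose order between GC and EC was not kept: WT_GC against WT_EC gave -0.25 ± 0.16 SE (adjusted p = 0.170), and SpdefKO_GC against SpdefKO_EC gave 1.16 ± 0.18 SE (adjusted p = 1.31e-05).

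Some markers of rarer epithelial cells fell with Prss23 in EC. Of the 8 tuft cell markers tested 6 fell in SpdefKO_EC, where 6.54% of all genes fell. Among them were the channel Trpm5 (log2 -2.003) and the kinase Dclk1 (-2.16). The summed level of the 9 measured went from 40.0 to 79.0 CPM in WT_EC to 9.48 to 17.6 CPM in SpdefKO_EC. Of the 10 enteroendocrine markers 5 fell, among them Chga (log2 -1.14), with a summed level of 561 to 761 CPM in WT_EC and 253 to 422 CPM in SpdefKO_EC. Of the 10 goblet and the 10 absorptive markers 3 each also fell in EC, and 2 absorptive ones rose, where 6.09% of all genes rose. Other lists went the other way. Of the 8 proliferating cell markers 2 rose and none fell, and of the 5 mast cell genes tested 3 rose and none fell. The part of any of these cells in the Prss23 difference was not tested. The profiles most like that of Prss23 were those of Nbea, a vesicle trafficking protein, and the autophagy gene Atg10, at a root-mean-square difference of 0.30 and 0.31. Prss23 has 2 exons at chr7:89507783-89527187 on the minus strand. It shares 864 exonic bases on the opposite strand with Prss23os, an antisense gene without counts of its own. As the strand setting of the counting is not given, reads of Prss23 and Prss23os cannot be fully told apart.

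Read over the 10 genes, 9 passed between GC and EC in WT, 3 higher in GC and 6 lower, where 61.2% of all tested genes passed, 31% higher and 30.1% lower. In SpdefKO all 10 passed, 4 higher and 6 lower, where 56.4% of all genes passed, 28% higher and 28.4% lower. Between the genotypes in GC 3 of 10 passed, 1 higher and 2 lower, where 21.4% of all genes passed, 10.4% higher and 11% lower. The median log2 difference was -0.14 beside 0.00 over all genes tested. In EC 2 of 10 passed, both lower, where 12.6% of all genes passed, 6.09% higher and 6.54% lower (median -0.17 beside 0.01). The test of a difference between the genotype effects was passed by 3 of 10, 2 with a positive and 1 with a negative value, where 9.53% of all genes passed, 4.88% and 4.65% by sign. The members' share of calls lay near that background in both genotype comparisons, and the comparisons share libraries. At 2-fold or more between the genotypes there was 1 member in GC (Tpsg1) and 1 in EC (Prss23), where 3.55% and 2.87% of all genes passed at that size. The ranges of the 4 libraries were apart for 9 of 10 members between WT_GC and WT_EC (59.4% of all genes), 9 between SpdefKO_GC and SpdefKO_EC (48.1%), 4 between the GC groups (25.1%) and 5 between the EC groups (15.3%), among them Tpsg1 at its floor.

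**Figure D2:**
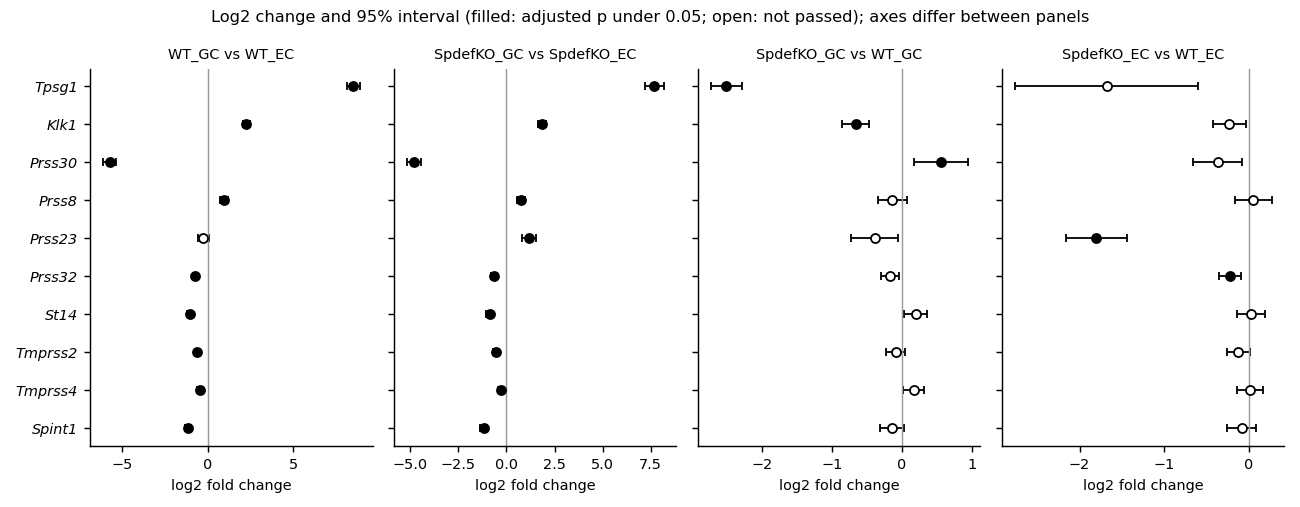
Log2 fold change with its 95% interval (horizontal axis, own scale per panel) of the 10 genes in the 4 comparisons; filled points passed an adjusted p of 0.05. The 2 panels on the left show GC against EC, where Tpsg1, Klk1 and Prss8 lie to the right of 0 and Prss30 far to the left; in the 2 on the right Tpsg1 in GC and Prss23 in EC lie farthest from 0 among filled points.

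Levels of different genes were compared only per kilobase of exon. In WT_GC the order was Klk1 at 2285 CPM per kb, Prss32 at 217, Tpsg1 at 82.8, Tmprss4 at 75.5, Tmprss2 at 71.2, Spint1 at 60.3, Prss8 at 51.1, St14 at 36.2, Prss23 at 3.81 and Prss30 at 3.09. In SpdefKO_GC Tpsg1 stood at 14.5 CPM per kb, below Prss8 at 46.5 and St14 at 41.6. In WT_EC the first 3 were Klk1 at 477, Prss32 at 356 and Prss30 at 160 CPM per kb, and the last was Tpsg1 at 0.224. The exon lengths are of all annotated exons of a gene together, so an unused exon lowers the value.

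**Figure D3:**
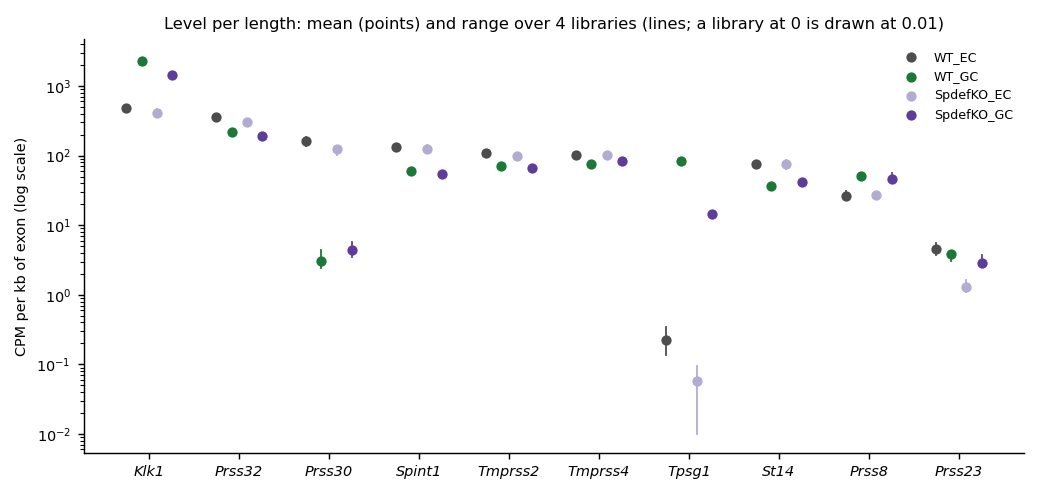
Mean level (points) and range over 4 libraries (lines) in CPM per kilobase of exon, on a log axis, for the 10 genes ordered by their highest group. Klk1 is the highest gene in every group and spans 406 to 2285 CPM per kb by group mean; Tpsg1 spans the widest range, from 0.0581 in SpdefKO_EC to 82.8 in WT_GC.

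The members Tpsg1, Prss30 and Prss32, lie on chromosome 17 a few megabases from Spdef. Spdef is at chr17:27714352-27728955, Tpsg1 at a distance of 2.34 Mb, Prss30 (chr17:23972126-23980566) at 3.73 Mb and Prss32 (chr17:23843855-23859779) at 3.85 Mb. In that neighbourhood only the listed trypsin-fold genes and Cacna1h were looked at, and no other gene. Of these 6 were tested, and 8 were not, all with group means under 0.3 CPM: Prss33, Prss21, Prss22, Prss27, Prss34, Prss29, Tpsab1 and Tpsb2. In GC, where 21.4% of all genes passed, Tpsg1 and Cacna1h fell. Prss30 was higher, a call lost in 5 of the 8 fits without 1 library. The low-level protease Tmprss3, on the other side of Spdef, rose from 0.402 to 1.15 CPM (log2 1.54 ± 0.45 SE, adjusted p = 0.0229). It passed the filter on low counts through SpdefKO_GC, the group where it is high, so its rise was shaped by the filter. Whether position near Spdef plays a part was not tested. Prss32 and Prss41 did not pass in GC (adjusted p = 0.0526 and 0.654).

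**Figure D4:**
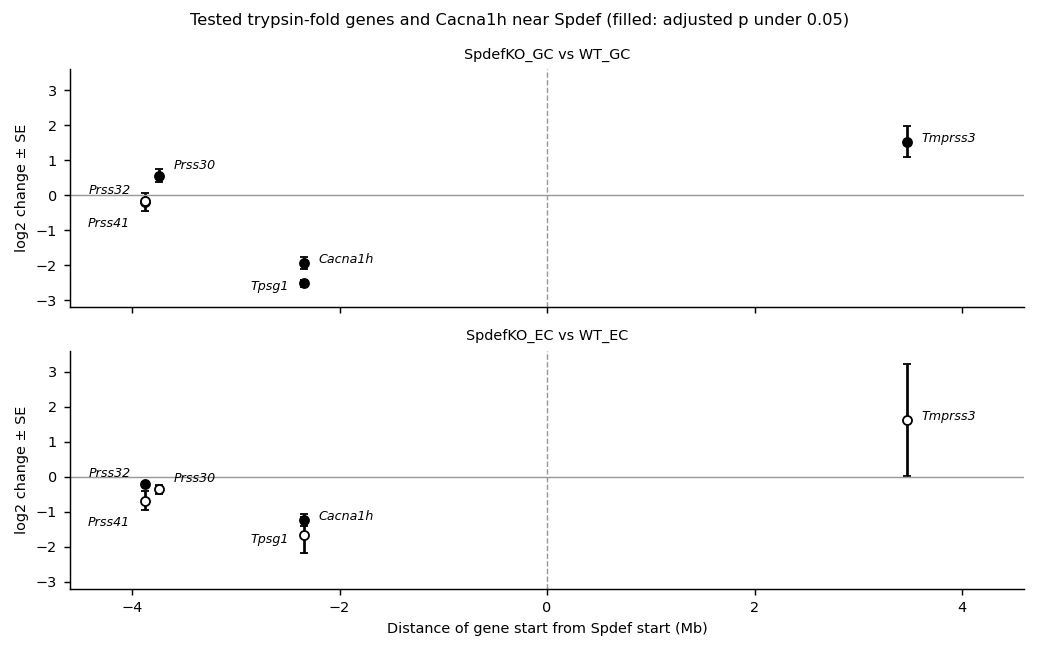
Log2 change ± SE (vertical axis) between SpdefKO and WT libraries against the distance of each gene start from the Spdef start in megabases, for GC (top) and EC (bottom); filled points passed an adjusted p of 0.05. Tpsg1 (-2.51 in GC) and its overlapping neighbour Cacna1h (-1.94) lie next to each other, and in the GC panel Prss32 (-0.17) and Prss41 (-0.19) coincide near 0.

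The other genes of the system were taken from 4 lists. Of 58 other secreted and granule proteases, 11 were tested, and 5 fell and none rose in SpdefKO_GC (median log2 -0.70 beside 0.00 over all genes, of which 11% fell). Hgfac, the protease that activates hepatocyte growth factor, stood at 527 ± 28.4 CPM (SD, n = 4) in WT_GC against 246 ± 30.7 CPM in SpdefKO_GC (log2 -1.10 ± 0.10 SE, adjusted p = 4.01e-07). Hgfac was at 50.6 and 52.6 CPM in WT_EC and SpdefKO_EC, and its genotype effect in GC minus that in EC was -1.16 ± 0.15 SE (adjusted p = 5.63e-05). The elastase Cela1 fell in both fractions, from 142 to 87.2 CPM in GC (log2 -0.70 ± 0.06 SE, adjusted p = 1.07e-07) and from 265 to 191 CPM in EC (-0.47 ± 0.06 SE, adjusted p = 4.68e-05). The other 3 that fell in GC, Klk15, Proc and Prss36, had means under 3 CPM there. Klk15 also fell in EC, from 6.73 to 2.15 CPM (log2 -1.67 ± 0.22 SE, adjusted p = 8.43e-05).

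Of 49 other inhibitors 17 were tested, and in SpdefKO_GC 5 fell and 1 rose, where 11% of all genes fell and 10.4% rose (median log2 -0.22 beside 0.00). The Kazal inhibitor Spink1, listed under its older symbol Spink3, fell from 410 ± 46.8 to 170 ± 34.7 CPM (log2 -1.27 ± 0.11 SE, adjusted p = 1.36e-07). Spink4, the abundant Kazal inhibitor of goblet cells, was at 2222 ± 189 and 1601 ± 87.7 CPM (log2 -0.47 ± 0.15 SE, adjusted p = 0.0354). Wfdc2, a whey acidic protein family member, fell by 0.57 ± 0.08 SE, and Aplp2, a relative of the amyloid precursor, by 0.44 ± 0.07 SE, beside Spint2. Slpi, the secretory leukocyte protease inhibitor, was the 1 that rose, from 6.81 ± 0.611 to 17.5 ± 3.76 CPM (log2 1.36 ± 0.28 SE, adjusted p = 0.00238). In EC, Serpinb6a rose from 522 to 669 CPM (log2 0.36, adjusted p = 0.00567). Spink3 fell there from 11.1 to 5.96 CPM and Spink4 from 9.18 to 4.28 CPM (log2 -0.89 and -1.09, adjusted p = 0.000801 and 0.00417). These EC levels of Spink3 and Spink4 were small beside their GC levels. Goblet markers in EC were lower as well, summing to 540 to 584 CPM across SpdefKO_EC libraries against 586 to 766 CPM across WT_EC libraries. Of the 10 markers 3 fell and none rose. The part of goblet cell RNA in the EC differences of Spink3 and Spink4 was not tested.

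Of 19 other membrane-anchored proteases 5 were tested, with Tmprss3 higher and Tmprss7 lower in SpdefKO_GC (log2 -0.54, adjusted p = 0.0455, from 4.17 to 2.87 CPM), where 10.4% of all genes were higher and 11% lower. Tmprss3 was among those tested through its level in SpdefKO_GC. Hepsin (Hpn) was higher in GC than in EC, at 32.6 CPM in WT_GC and 4.74 CPM in WT_EC (log2 2.77 ± 0.13 SE, adjusted p = 1.04e-12). Of 15 receptors and substrates 11 were tested, and 2 fell and none rose in SpdefKO_GC, a share near the 11% of all genes that fell: the sodium channel subunit Scnn1b, from 40.9 ± 7.34 to 25.6 ± 8.45 CPM (log2 -0.68 ± 0.21 SE, adjusted p = 0.0300), and Epcam (-0.18 ± 0.06 SE, adjusted p = 0.0452). The channel subunits were split between the fractions in WT. Scnn1a was higher in EC (213 against 77.2 CPM), while Scnn1b and Scnn1g were higher in GC (40.9 against 2.42 CPM and 12 against 1.52 CPM), each past the threshold. Beside all these GC differences stand the markers of other cells. All 10 enteroendocrine markers rose in SpdefKO_GC, where 10.4% of all genes rose, to a summed level of 209 to 324 CPM from 88.9 to 126 CPM in WT_GC. Of the 7 stem and crypt base markers tested 3 fell, where 11% of all genes fell. The summed level of all 8 genes in that list was 1963 to 2125 CPM in SpdefKO_GC and 2912 to 4127 CPM in WT_GC. Their part in these differences was not tested.

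**Figure D5:**
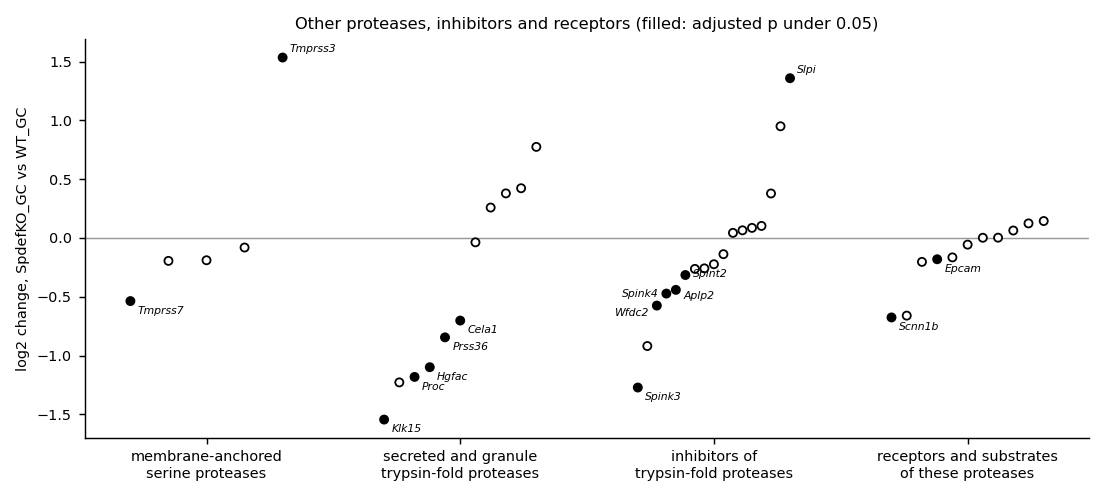
Log2 change between SpdefKO_GC and WT_GC (vertical axis) for the tested genes of the 4 lists, each ordered by its value; filled, named points passed an adjusted p of 0.05. In the secreted and granule list the 5 filled points are all below 0, from Cela1 at -0.70 to Klk15 at -1.54, and Slpi at 1.36 is the filled point above 0 among the inhibitors.

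The profiles most like those of the remaining members were close in shape and of small range. Over the 16 libraries the nearest genes were Utrn and Ufl1 for Prss8, Itm2b and Ankrd10 for Prss32, Lasp1 and Pkp3 for St14, Acvr1b and Arf3 for Tmprss2, Atp5d and Tssc1 for Tmprss4, and Dgat1 and Fam83h for Spint1. Their root-mean-square differences ran from 0.05 for Lasp1 with St14 to 0.11 for Ufl1 with Prss8. Lasp1, an actin-binding protein, was at 432 ± 12.1 CPM in WT_EC, 211 ± 5.64 in WT_GC, 432 ± 37.6 in SpdefKO_EC and 236 ± 12.7 in SpdefKO_GC, where St14 was at 576 ± 24.6, 277 ± 3.14, 583 ± 80.7 and 317 ± 12.3 CPM. These genes were chosen for their likeness, so it is a description.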

How the data were processed

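The authors aligned reads to mm10 with STAR 2.4.0f, counted them with HTSeq 0.6.1p1 and used DESeq2 1.14, per the submitters' processing notes; no label names the strand setting or the annotation of the counting. The deposited count table holds raw counts per gene, and the deposited normalized table holds the same counts divided by a size factor per library (0.674 to 1.26), a signal used only to restore 27 symbols that had turned into dates. Another 3 rows name no gene, held 47.1% to 54.7% of the counts and were left out.

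Genes were tested with edgeR 4.0.16 (R 4.3.3, limma 3.58.1) by the quasi-likelihood test with robust dispersion, TMM factors (0.944 to 1.06) and the default filter by group, on all 16 libraries with 1 coefficient per group and a threshold of 0.05. The biological coefficient of variation was 11.7%. Standard errors are the log2 change divided by the root of its F value. The scripts were tested on simulated data. Alternatives used other scaling, no filter, DESeq2 1.42.0, limma-voom, fewer groups and each library left out. The members and the lists were chosen with earlier results of these data known. Named genes were the members, Spdef, Cacna1h, Spint2 and F2rl1, up to 3 rises and 3 falls per list and comparison with at least 5 CPM in the higher group, and the 2 genes nearest to each member. Tmprss3, Tmprss7, Klk15, Proc and Prss36, below that level in GC, and the markers and neighbours were named after their values were seen. Gene positions are from GENCODE M21 on GRCm38 and upstream windows from RefSeq.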

Additional observations from a re-analysis of the deposited data

Results flagged for a closer look

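Outliers were looked for in 52 sets of 4 libraries (13 genes in 4 groups), of which chance flags about 1 in 20, and 4 were found. Tpsg1 was at 130 CPM in WT_GC library 13, where the other 3 lay between 109 and 111 CPM. Prss23 was at 14.1 CPM in SpdefKO_GC library 19, with the others between 9.54 and 10.3 CPM. St14 was at 281 CPM in WT_GC library 11, only a little above the others at 274 to 275 CPM. F2rl1 was at 206 CPM in SpdefKO_EC library 20, with the others between 179 and 183 CPM.

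The genotype effect differed between GC and EC for 3 members, by the interaction term of the edgeR model. It was more negative in GC for Klk1 (-0.43, adjusted p = 0.0490) and less negative or positive in GC for Prss30 (0.93, adjusted p = 0.0158) and Prss23 (1.42, adjusted p = 0.000812). Among the listed genes with at least 5 CPM it was more negative in GC for Hgfac (-1.16, adjusted p = 5.63e-05), Aplp2 (-0.39, adjusted p = 0.0231) and Epcam (-0.30, adjusted p = 0.0405).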

How the results depend on the processing

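No paired analysis was possible because the library numbers are not shared between groups and no label ties a GC library to an EC library of the same mouse. GC and EC numbers are adjacent within each genotype, but no label says that neighbours come from the same mouse. The errors of the GC against EC and interaction values leave any such pairing out. Over the 10 members, 819 alternative values were computed: 769 kept their direction and side of the threshold, 28 lost the call, 8 gained it and 14 changed sign. Tpsg1 and Klk1 in GC and Prss23 in EC kept their calls between the genotypes in all 15 alternatives each. All GC against EC calls in WT were kept, and in SpdefKO all but that of Tmprss4 (adjusted p = 0.0506 with upper-quartile factors and 0.0730 with plain library size).

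Between SpdefKO_EC and WT_EC, 1631 genes passed, 1075 with only the groups compared and 940 to 2253 with 1 library left out, the lowest 2 without SpdefKO_EC library 4 (940) and without WT_EC library 17 (1006). Members passing there went from 2 to 1 with only the groups compared and were 1 to 2 with 1 library left out. In GC, 2 to 4 members passed with 1 library left out. Prss30 in GC lost its call without a filter (adjusted p = 0.0742), with only the groups compared (0.0560) and without WT_GC library 9, 11 or 13 or SpdefKO_GC library 3 or 19 (0.0727 to 0.111). Prss32 in EC lost it with only the groups compared (0.0709). The Klk1 interaction passed in 7 of 22 alternatives (adjusted p = 0.0233 to 0.11). Calls were gained for Prss32 in GC with upper-quartile factors, DESeq2, limma-voom and without SpdefKO_GC library 5 (0.0283 to 0.0430), for Klk1 in EC without SpdefKO_EC library 20 (0.0397) and for Prss30 in EC with limma-voom (0.0352).

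Signs changed only for differences near 0 that never passed. F2rl1 in GC was -0.013 with upper-quartile factors, -0.0084 without a filter and -0.057 to 0.057 with 1 library left out. St14 in EC was -0.026 with upper-quartile factors, -0.022 with plain library size and -0.047 to 0.091 with 1 library left out. Tmprss4 in EC was -0.0025 with DESeq2 size factors, -0.037 with upper-quartile factors, -0.034 with plain library size, -0.0019 with DESeq2 and -0.047 to 0.078 with 1 library left out. The interactions of Spint1 and F2rl1 reached 0.022 and 0.015 with 1 library left out, from lows of -0.10 and -0.14. The cause was not tested.

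Plain library size moved the median of all genes between SpdefKO_GC and SpdefKO_EC from 0.03 to 0.16 on the log2 scale, and the share of calls that were higher from 49.7% to 61.9% (60.9% with upper-quartile factors). In WT that median moved from 0.05 to 0.13 and 0.14. Between the EC groups the higher share moved from 48.3% to 32.7% and 33.1%, and for the interaction from 51.2% to 66.1% with plain library size. Without TMM factors 3 mean levels moved by more than 1 SD: Prss32 in WT_EC to 640.2 CPM, St14 in WT_GC to 286 CPM and Tmprss2 in SpdefKO_GC to 507 CPM. Depth limits Tpsg1 in EC, which fell below the filter when only the EC groups were fitted and has no value there.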
